A study of Homo sapiens with 4 samples.

Results

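The mitosis and spindle genes are a set of 39 genes that work between entry into mitosis and the separation of the daughter cells. They were chosen by symbol from a fixed list, and all 39 were found among the 57820 Ensembl gene identifiers in the count files. RNA came from A549, a long-established human cell line derived from a lung adenocarcinoma, in 4 libraries. The labels give 2 libraries of parental A549 cells with epithelial morphology and 2 libraries of TD cells. TD cells are A549 cells to which the cytokine TGF-β (transforming growth factor beta) was added every 3 days to 2 ng/ml, and they are described as mesenchymal-like. Both lines grew in the same medium with serum and gentamycin, and no vehicle-treated group is described. TD is a derivative of 1 cell line, the length of its TGF-β treatment is not given in the sources used here, and the RNA of each library is that of a whole culture. A change in the share of dividing cells and a change in RNA per dividing cell therefore cannot be told apart. Whether the 2 libraries of a line came from separate cultures is not stated, so the p-values here reflect the spread between these libraries alone, which may be technical.

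In mitosis, the kinase CDK1 bound to a B-type cyclin drives the cell into division, microtubules build the spindle, and kinetochores on each chromosome attach to it. The spindle checkpoint holds back CDC20 until every kinetochore is attached. CDC20 then turns on the anaphase-promoting complex, which destroys cyclin B and securin, and the central spindle guides the cleavage of the cell. Many of these genes are transcribed late in the cell cycle, through the MuvB complex at a short element called CHR (cell cycle genes homology region) and the factor NF-Y at CCAAT boxes. TGF-β is known as a cytokine that slows the growth of many epithelial cells and drives them toward a mesenchymal state.

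Of the 39 genes, 33 had an entry among the RefSeq promoters of build GRCh38.p14, each running from 250 bases before to 50 bases after a gene's start. The letters TTTGAA (for the CHR element) and CCAAT (for the CCAAT box) were searched on both strands. Other spellings of either element were not searched, so a promoter without a match may still hold one. A match may share bases with a match of the other motif, or with one of the same motif on the other strand. CHR letters were found in 25 of the 33 promoters (75.8%), against 18.2% of 27305 genes with a promoter of the same length. A CCAAT box was found in 27 (81.8%, against 39.7%), and both in 21 (63.6%, against 8.37%). Where a gene has more than 1 start, a match at any of them was counted. The matches describe letters only and are no measure of binding in these cells. Below are the 150 bases before an annotated start of each of 5 genes, 5′ to 3′ on the gene's strand, with every match in capitals. HMMR is shown as the largest rise with an entry and CDK1 as the largest fall, and the other 3 were chosen after their values were seen. CDC20 is a gene that rose, MKI67 a gene that fell, and CENPE a gene that rose with no match to these letters in its window.
HMMR: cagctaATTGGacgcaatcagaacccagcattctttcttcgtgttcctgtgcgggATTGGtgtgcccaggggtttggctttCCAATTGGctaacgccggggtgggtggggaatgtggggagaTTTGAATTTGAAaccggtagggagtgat
CDC20: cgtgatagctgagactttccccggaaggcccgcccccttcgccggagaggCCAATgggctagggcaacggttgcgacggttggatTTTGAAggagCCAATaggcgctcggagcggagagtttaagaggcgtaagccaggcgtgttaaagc
CENPE: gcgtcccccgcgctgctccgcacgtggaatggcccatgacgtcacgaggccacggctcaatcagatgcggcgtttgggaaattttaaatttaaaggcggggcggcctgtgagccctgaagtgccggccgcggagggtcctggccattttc
CDK1: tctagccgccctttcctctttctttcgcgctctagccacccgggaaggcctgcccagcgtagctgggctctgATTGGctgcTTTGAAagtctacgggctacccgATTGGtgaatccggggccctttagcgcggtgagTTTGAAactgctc
MKI67: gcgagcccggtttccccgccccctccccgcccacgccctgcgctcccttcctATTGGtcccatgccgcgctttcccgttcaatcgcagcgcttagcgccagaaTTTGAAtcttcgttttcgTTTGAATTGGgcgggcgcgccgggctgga

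These windows lie at chr5:163460482-163460631 on the plus strand (HMMR), chr1:43358831-43358980 on the plus strand (CDC20), chr4:103198344-103198493 on the minus strand (CENPE), chr10:60778328-60778477 on the plus strand (CDK1) and chr10:128126424-128126573 on the minus strand (MKI67), in GRCh38.p14. They stand just before an annotated start of each gene. The HMMR window holds 2 CHR matches side by side and 4 CCAAT matches. Of these 4, 2 lie on opposite strands of the stretch CCAATTGG and share bases. The windows of CDK1 and MKI67, which were lower in TD, hold 2 CHR and 2 CCAAT matches each. CDK1 has 2 starts, and the window shown is the one with more matches. Over 300 bases, the start shown for CDK1 holds 3 CHR and 2 CCAAT matches, and its other start holds 1 CHR and 1 CCAAT match. The window of CDC20, which was higher in TD, holds 1 CHR and 2 CCAAT matches. Its whole 300 bases hold 2 of each. Over the whole 300 bases, CENPE and KIF2C were the 2 genes with an entry and no match to the letters of either motif. Genes with either result carried the motifs. Both were found in 10 of 15 genes higher in TD, in 4 of 4 genes lower in TD and in 7 of 14 genes that were not called. No difference between these classes was tested.

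**Figure D1:**
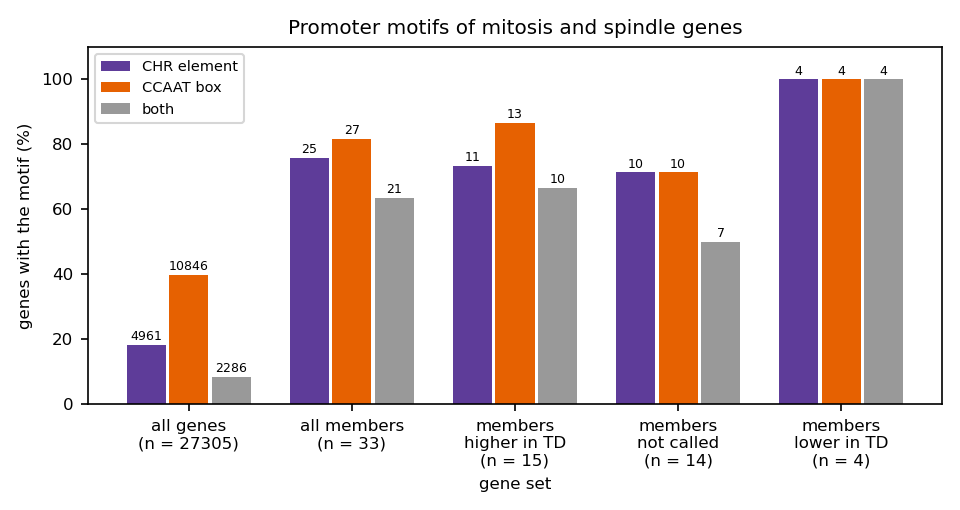
Share of genes (vertical axis, %) whose RefSeq promoter holds the CHR letters, a CCAAT box or both, for all 27305 genes with a promoter, the 33 mitosis and spindle genes (members) with one, and those higher, not called or lower in TD. The number over each bar is the count of genes, and the 33 genes stand at 75.8%, 81.8% and 63.6% against 18.2%, 39.7% and 8.37% for all genes.

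Gene counts came to 26729278 and 29381872 in A549 replicates 1 and 2, and to 28237849 and 44133836 in TD replicates 1 and 2. The labelled states were visible in the markers. CDH1, epithelial E-cadherin, averaged 189.9 CPM in A549 but 2.95 CPM in TD, and CDH2, N-cadherin, averaged 0.485 and 187 CPM (CPM are counts scaled to a common library size by edgeR's TMM method). Marker lists of leukocytes, endothelial cells, fibroblasts and lung alveolar cells summed to at most 3.47, 0.724, 1.72 and 0.323 CPM in any library, and the alveolar gene SFTPA1 and the T-cell gene CD3E had 0 counts in all 4. A count of 0 allows up to 0.068 to 0.112 CPM, depending on the library. The mitosis and spindle genes were well measured beside this, the lowest being NDC80 and SPC25 at means of 16.7 and 15.9 CPM in their lower group.

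Most mitosis and spindle genes that changed had more RNA in TD than in A549, and CDK1 was among the exceptions. The summed level of the set was 4785.5 and 5018.3 CPM in the A549 libraries and 5814.3 and 6120.6 CPM in the TD libraries. All 39 passed the filter for low counts, and 19 were called higher and 5 lower in TD, while 15 were not called. Calls are those of edgeR's quasi-likelihood test at a Benjamini-Hochberg adjusted p below 0.05 over 17785 tested genes. The 19 higher genes make 48.7% of the set, against 21.6% of all tested genes, 25.7% of protein-coding genes and 28.4% of genes with a mean of at least 10 CPM. The 5 lower genes make 12.8%, against 21.4%, 24.9% and 23.1%. Calls in either direction made up 43.0%, 50.6% and 51.4% of these backgrounds. The difference from the backgrounds was not tested. The median log2 change was 0.27, against -0.04 for all tested genes and 0.05 for genes of at least 10 CPM. The changes were small, from -0.73 to 0.86 on the log2 scale. None reached 2-fold, while 21.8% of all tested genes and 16.1% of those of at least 10 CPM were called at 2-fold or more. In 35 of the 39 genes the CPM of the groups did not overlap, 27 with TD above and 8 with TD below. Among all tested genes, 74.0% did not overlap, 36.5% with TD above and 37.5% with TD below. Of the 9232 genes of at least 10 CPM, 7299 did not overlap, 4023 with TD above and 3276 with TD below.

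How many genes were called rested on the A549 libraries. Without A549 replicate 1, 11 genes were higher and 4 lower, and without A549 replicate 2 the counts were 11 and 2. With either A549 library left out, the spread is taken from the TD pair alone, and the coefficient of variation was then 34.1% and 34%, against 20.1% with all libraries. There were 10 genes whose call held under each of the 15 alternatives other than a test against a 1.5-fold change. They are CCNB1, TOP2A, BIRC5, TPX2, HMMR, ASPM, CENPE and CENPF, all higher, and CDK1 and ECT2, both lower. BIRC5 and HMMR also passed the test against a 1.5-fold change (adjusted p = 0.0380 and 0.0213 by edgeR), which calls 21.6% of all tested genes.

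**Figure D2:**
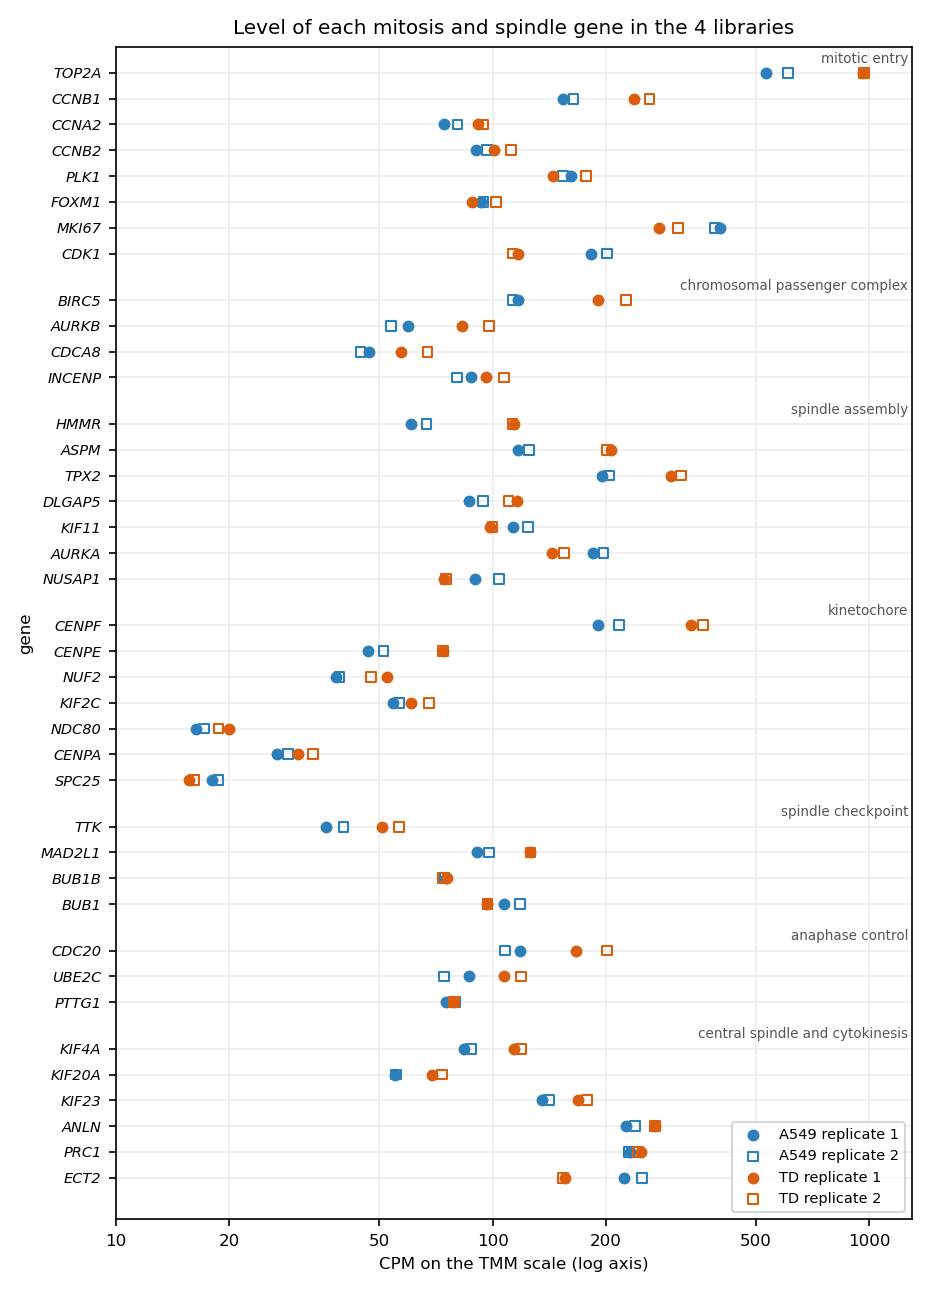
Level of each mitosis and spindle gene in each library (horizontal axis, CPM on the TMM scale, log axis), grouped by role, with A549 in blue and TD in orange. TOP2A lies highest, at 533 and 609.6 CPM in A549 and 963 and 971 CPM in TD, and in PLK1, FOXM1, BUB1B and PTTG1 the groups overlap.

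Of the 8 genes of mitotic entry, 2 were higher (25.0%), 2 were lower (25.0%) and 4 were not called, shares near those of all tested genes (21.6% and 21.4%). CDK1, the kinase that drives mitotic entry, had 182 and 201 CPM in A549 and 117 and 113 CPM in TD. Both TD libraries lay below both A549 libraries, and the log2 change was -0.73 (SE 0.08, adjusted p = 0.00266 by edgeR), the largest fall of the set. CCNB1, the cyclin B1 that binds and activates CDK1, moved the other way, with 154 and 164 CPM in A549 and 238 and 261 CPM in TD. Its log2 change was 0.65 (SE 0.09, adjusted p = 0.00440 by edgeR), and the groups did not overlap. The related cyclins showed less. CCNB2, cyclin B2, had 90.5 and 96.8 CPM in A549 and 101 and 112 CPM in TD, and CCNA2, cyclin A2 of S phase and early mitosis, had 74.3 and 80.7 against 91.2 and 94.6 CPM. For both genes TD lay above, but neither was called (adjusted p = 0.160 and 0.0514 by edgeR). CCNA2 was called by DESeq2 (adjusted p = 0.00529).

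Among the other entry genes, TOP2A was the most abundant of the set and rose, while MKI67 fell. TOP2A encodes topoisomerase II alpha, which untangles chromosomes, and it had 533 and 609.6 CPM in A549 and 963 and 971 CPM in TD. The log2 change was 0.76 (SE 0.10, adjusted p = 0.00441 by edgeR). MKI67 encodes Ki-67, the coat protein of mitotic chromosomes that pathologists stain as a mark of proliferation. It had 401 and 389 CPM in A549 and 277 and 311 CPM in TD, and the log2 change was -0.43 (SE 0.09, adjusted p = 0.0195 by edgeR). Its adjusted p was 0.0603 without A549 replicate 1 and 0.0532 without A549 replicate 2. TOP2A and MKI67 are both used as proliferation marks, and in these libraries they changed in opposite directions. The polo kinase gene PLK1 had 162 and 154 CPM in A549 and 145 and 177 CPM in TD. FOXM1, a transcription factor of late cell cycle genes, had 93.1 and 94.6 CPM in A549 and 88.1 and 102 CPM in TD. In both genes the TD libraries lay on either side of the A549 libraries, with log2 changes of 0.03 and 0.02 (SE 0.12 and 0.10) and no call.

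Of the 4 genes of the chromosomal passenger complex, which corrects faulty attachments and guides cytokinesis, 3 rose (75.0%). Among all tested genes 21.6% rose, and among those of at least 10 CPM 28.4%. The median log2 change of these 4 genes was 0.56, the highest of the 7 roles. BIRC5 encodes survivin, the subunit that docks the complex on centromeres, and it had 117 and 113 CPM in A549 and 191 and 226 CPM in TD. Its log2 change, 0.86 (SE 0.11, adjusted p = 0.00351 by edgeR), was the largest rise of the set. AURKB, the kinase of the complex, had 59.7 and 53.7 CPM in A549 and 82.8 and 97.7 CPM in TD (log2 change 0.67, SE 0.11, adjusted p = 0.00907 by edgeR). CDCA8, the subunit borealin, had 47.1 and 44.6 against 57.1 and 67.2 CPM (0.44, SE 0.11, adjusted p = 0.0261 by edgeR). All TD libraries lay above all A549 libraries for these genes, as they did for 36.5% of all tested genes. The scaffold gene INCENP had 87.7 and 80.5 CPM in A549 and 95.8 and 107 CPM in TD, with a log2 change of 0.27 and no call (adjusted p = 0.0746 by edgeR). Leaving out A549 replicate 2 ended the calls of AURKB (adjusted p = 0.0563) and CDCA8 (0.114), and CDCA8 was also not called without A549 replicate 1 (0.0895).

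Of the 7 genes of spindle assembly, 4 rose (57.1%) and 2 fell (28.6%), against 21.6% and 21.4% of all tested genes. HMMR, a microtubule-binding protein of the spindle poles, had 60.8 and 66.7 CPM in A549 and 114 and 113 CPM in TD. The log2 change was 0.83 (SE 0.08) and the adjusted p of 0.00154 by edgeR was the lowest of the set. ASPM, a spindle pole protein known from inherited microcephaly, had 117 and 125 CPM in A549 and 206 and 201 CPM in TD (log2 change 0.75, SE 0.08). TPX2, which activates the kinase Aurora A on spindle microtubules, had 195 and 204 CPM in A549 and 297 and 316 CPM in TD (0.62, SE 0.08). AURKA, which encodes Aurora A itself, went the other way, with 185 and 197 CPM in A549 and 144 and 155 CPM in TD. Its log2 change was -0.35 (SE 0.08, adjusted p = 0.0253 by edgeR), so the gene of the kinase fell where that of its activator rose. NUSAP1, a protein that bundles spindle microtubules, had 90.0 and 104 CPM in A549 and 74.1 and 75.3 CPM in TD (-0.38, SE 0.10, adjusted p = 0.0313 by edgeR). DLGAP5, which stabilises the microtubules of kinetochores, had 86.7 and 94.3 against 116 and 110.2 CPM (0.32, SE 0.08, adjusted p = 0.0312 by edgeR). For KIF11, the motor that pushes the spindle poles apart, the A549 libraries had 113 and 124 CPM and the TD libraries 98.7 and 99.9 CPM. TD lay below without a call (adjusted p = 0.0611 by edgeR), but DESeq2 called KIF11 lower (adjusted p = 0.0163). Without A549 replicate 2, AURKA, NUSAP1 and DLGAP5 were not called (adjusted p = 0.0683, 0.0821 and 0.0991), and DLGAP5 was also not called without A549 replicate 1 (0.219). With library totals in place of TMM scaling, DLGAP5 lost its call as well.

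In the kinetochore, 3 of 7 genes rose (42.9%, against 21.6% of all tested genes) and none was called lower. CENPF, a large protein of the outer kinetochore, had 190.3 and 217 CPM in A549 and 337 and 362 CPM in TD (log2 change 0.78, SE 0.10, adjusted p = 0.00378 by edgeR). CENPE, the kinesin that carries chromosomes to the spindle equator, had 46.6 and 51.3 CPM in A549 and 73.8 CPM in both TD libraries (0.59, SE 0.08, adjusted p = 0.00453 by edgeR). The subunits of the NDC80 complex, which binds microtubules end on, differed among themselves. NUF2 had 38.3 and 39.2 CPM in A549 and 52.3 and 47.6 CPM in TD and rose by 0.37 on the log2 scale (SE 0.08, adjusted p = 0.0216 by edgeR). NDC80 itself had 16.3 and 17.1 against 19.9 and 18.7 CPM, and SPC25 had 18.0 and 18.7 against 15.6 and 16.1 CPM. Their log2 changes of 0.21 and -0.21 were not called. Neither overlapped between the groups, which was also so for 74.0% of all tested genes. The fourth subunit, SPC24, is not in the set and was not called either (log2 change -0.14). CENPA, the histone variant that marks centromeres, had 26.8 and 28.6 against 30.5 and 33.4 CPM, and KIF2C, a depolymerising kinesin, had 54.4 and 56.3 against 60.8 and 67.9 CPM. Both lay above in TD and neither was called (adjusted p = 0.131 and 0.105 by edgeR). The call of NUF2 ended when A549 replicate 1 (adjusted p = 0.186) or A549 replicate 2 (0.145) was left out, and with library totals in place of TMM scaling.

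Of the 4 spindle checkpoint genes, 2 rose (50.0%, against 21.6% of all tested genes) and none was called lower. The kinase gene TTK, also called MPS1, which starts checkpoint signalling, had 36.1 and 40.2 CPM in A549 and 50.7 and 56.5 CPM in TD (log2 change 0.49, SE 0.10, adjusted p = 0.0152 by edgeR). MAD2L1, which encodes the CDC20 inhibitor MAD2, had 91.1 and 97.9 CPM in A549 and 126 CPM in both TD libraries (0.41, SE 0.08, adjusted p = 0.0115 by edgeR). BUB1B, the BubR1 subunit that joins MAD2 in holding back CDC20, had 75.2 and 74.5 CPM in A549 and 75.8 and 73.7 CPM in TD. Its log2 change was 0.00 (SE 0.07), and the libraries overlapped. The kinase gene BUB1 had 107 and 118 against 96.7 and 96.9 CPM, below in TD without a call (adjusted p = 0.0905 by edgeR). DESeq2 called BUB1 lower (adjusted p = 0.0453). Without A549 replicate 1, TTK (adjusted p = 0.0754) and MAD2L1 (0.0821) lost their calls.

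Of the 3 genes of anaphase control, 2 rose (66.7%, against 21.6% of all tested genes). CDC20, the activator of the anaphase-promoting complex, had 118 and 108 CPM in A549 and 167 and 201 CPM in TD (log2 change 0.70, SE 0.12, adjusted p = 0.00921 by edgeR). UBE2C, the ubiquitin-conjugating enzyme of that complex, had 86.7 and 74.4 CPM in A549 and 107 and 119 CPM in TD (0.49, SE 0.11, adjusted p = 0.0221 by edgeR). For both genes TD lay above A549, and both calls ended without A549 replicate 2 (adjusted p = 0.0609 and 0.0784). PTTG1, which encodes securin, the inhibitor of separase, had 75.3 and 79.4 CPM in A549 and 78.4 and 79.1 CPM in TD. These overlapped, with a log2 change of 0.03 (SE 0.07).

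In the central spindle and cytokinesis, 3 of 6 genes rose (50.0%) and 1 fell (16.7%), against 21.6% and 21.4% of all tested genes. The gene that fell was ECT2, the exchange factor that activates RhoA to form the cleavage furrow. It had 224 and 249 CPM in A549 and 156 and 154 CPM in TD, and the log2 change was -0.61 (SE 0.09, adjusted p = 0.00509 by edgeR). The kinesins of the central spindle were higher. KIF4A had 84.0 and 87.7 CPM in A549 and 114 and 119 CPM in TD (log2 change 0.44, SE 0.07, adjusted p = 0.00899 by edgeR). KIF20A had 55.1 and 55.5 against 69.1 and 73.3 CPM (0.36, SE 0.07, adjusted p = 0.0151 by edgeR), and KIF23, which with RACGAP1 recruits ECT2 to the spindle midzone, had 135 and 141 against 169 and 178 CPM (0.33, SE 0.08, adjusted p = 0.0222 by edgeR). No kinesin of this group overlapped between A549 and TD, as 74.0% of all tested genes did not. PRC1, which bundles the midzone microtubules, had 231 and 230.2 against 248 and 243 CPM, and ANLN, the furrow protein anillin, had 226 and 239 against 270.4 and 270.0 CPM. TD lay above in both, with no call (adjusted p = 0.368 and 0.0772 by edgeR). Without A549 replicate 1 the calls of KIF4A (adjusted p = 0.0552), KIF20A (0.0730) and KIF23 (0.101) were lost, and those of KIF20A and KIF23 also without A549 replicate 2 (both 0.0627).

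**Figure D3:**
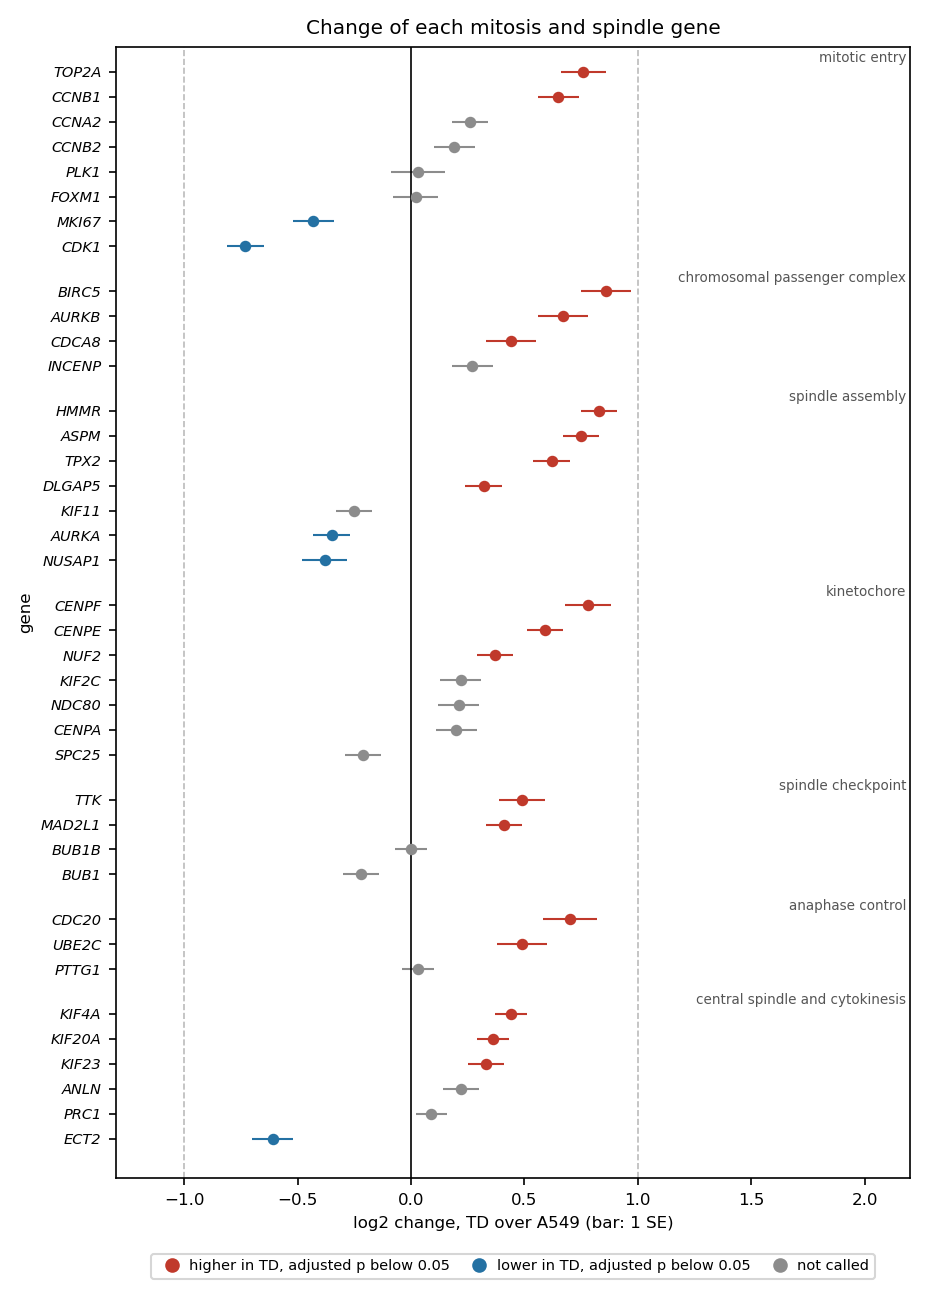
Log2 change of each mitosis and spindle gene, TD over A549 (horizontal axis), with a bar of 1 SE, grouped by role. Red marks the 19 genes called higher, blue the 5 called lower and grey the 15 not called, and the dashed lines mark 2-fold, which no gene reached.

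Levels can be compared between genes only per length, here as mean CPM per kilobase of the gene's exons in GENCODE 29. TOP2A was highest in both lines, at 88.8 in A549 and 150.2 in TD. In A549 it was followed by AURKA (65.3), UBE2C (62.6) and CCNB1 (62.2), and in TD by CCNB1 (97.4), CDC20 (90.3) and UBE2C (87.8), with AURKA at 51.1. The lowest were NDC80, at 4.64 in A549 and 5.36 in TD, and CENPE, at 5.18 and 7.82. Per length, CDK1 stood at 48.8 in A549 and 29.4 in TD, while CCNB1 went from 62.2 to 97.4.

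The libraries of a group differed from each other in step with base composition. Over the 39 genes, the GC content of the longest coding transcript ran from 35.3% to 59.6%. Its rank correlation (Spearman) with the log2 ratio of TD replicate 2 to replicate 1 was 0.79, and with that of A549 replicate 2 to replicate 1 it was -0.75. For 8879 protein-coding genes of at least 10 CPM, these values were 0.36 and -0.56. With the change between TD and A549 itself, the correlation was 0.02 over the 39 genes and -0.15 over the 8879. These values describe genes that share the same 4 libraries and are given without a test. All 9 genes with a GC content of at least 50% (BIRC5, FOXM1, CDC20, CDCA8, KIF2C, INCENP, PLK1, UBE2C and AURKB) were higher in TD replicate 2 than in TD replicate 1, against 19 of the other 30. Of the 9, 5 were called higher and 0 lower, with a median log2 change of 0.44, and of the 30, 14 and 5, with a median of 0.24. All 4 genes of the chromosomal passenger complex are among the 9. How far base composition enters the calls was not tested.

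**Figure D4:**
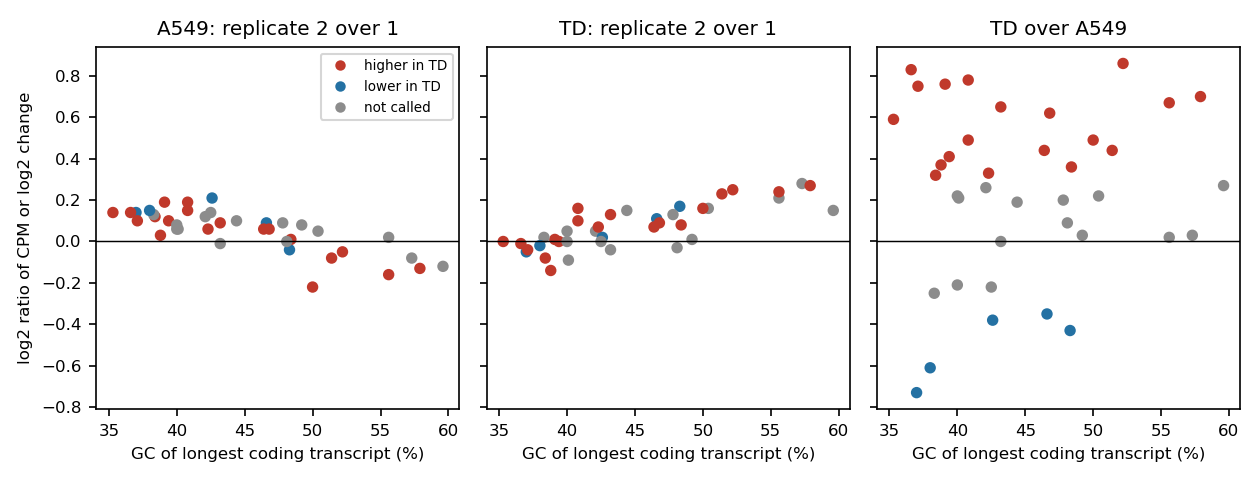
GC content of each of the 39 genes (horizontal axis, %) against the log2 ratio of A549 replicate 2 to 1 (left), of TD replicate 2 to 1 (middle) and the log2 change of TD over A549 (right), with 1 point per gene coloured by its call. The rank correlations are -0.75, 0.79 and 0.02.

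Other genes of cell division that are not in the set went both ways, and their lists are given by counts beside the share of all tested genes, 21.6% higher and 21.4% lower. Of 37 other genes of the spindle checkpoint and kinetochore, 16 rose (43.2%) and 6 fell (16.2%), with a median log2 change of 0.30. SPDL1, the Spindly protein that brings dynein to kinetochores, had 43.0 and 46.3 CPM in A549 and 145 and 136 CPM in TD (1.66, SE 0.08, adjusted p = 1.94e-04 by edgeR). SKA2, of the complex that helps kinetochores follow microtubule ends, had 55.7 and 56.3 against 111 and 132 CPM (1.12, SE 0.11, adjusted p = 0.00154 by edgeR). Both changed more than any of the 39. PMF1, of the MIS12 complex, and MAD2L1BP, which helps to silence the checkpoint, had log2 changes of -0.52 and -0.38. Neither was called without A549 replicate 1 (adjusted p = 0.0957 and 0.0763) or A549 replicate 2 (0.127 and 0.0576), and without either library 1 gene of the list was lower.

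Of 18 other regulators of mitotic entry, 4 rose (22.2%) and 3 fell (16.7%), with a median of 0.11. Of the CDC25 phosphatases, which activate CDK1, 2 fell and 1 rose. CDC25B had 218 and 205 CPM in A549 and 80.4 and 97.8 CPM in TD, and changed by -1.25 (SE 0.12, adjusted p = 0.00146 by edgeR). CDC25A, named after its values were seen, also fell, from 32.4 and 34.9 to 25.2 and 25.1 CPM (-0.42, SE 0.08, adjusted p = 0.0132 by edgeR). CDC25C rose from 10.1 and 10.8 to 17.3 and 18.0 CPM (0.76, SE 0.09, adjusted p = 0.00332 by edgeR). MASTL, the Greatwall kinase, fell from 60.5 and 61.1 to 40.7 and 39.2 CPM, while ARPP19, its substrate, had 243 and 257 against 343 and 376 CPM. Leaving out A549 replicate 1 ended the call of ARPP19 (adjusted p = 0.0550). LIN54, the subunit of MuvB that binds the CHR element, was looked at after its values were seen and had 15.3 and 13.7 CPM in A549 and 20.3 and 21.1 CPM in TD (log2 change 0.51, adjusted p = 0.0130 by edgeR). The number of the list that rose was 2 without either A549 library and 8 without TD replicate 1.

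Of 18 genes of the anaphase-promoting complex and separase, 4 rose (22.2%) and 3 fell (16.7%), shares near those of all genes. FZR1, the activator of the complex in late mitosis and G1, had 32.8 and 26.9 CPM in A549 and 84.9 and 107 CPM in TD (1.68, SE 0.16, adjusted p = 0.00144 by edgeR). FBXO5, an inhibitor of the complex, also rose, from 23.6 and 24.2 to 41.4 and 43.3 CPM (0.82, SE 0.08). Its subunit gene ANAPC16 fell from 88.1 and 94.7 to 42.4 and 45.9 CPM (-1.05, SE 0.08), and ANAPC13 had 43.8 and 47.8 against 27.9 and 33.2 CPM, a fall whose call ended when A549 replicate 2 was left out (adjusted p = 0.0624).

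Of 21 condensin and cohesin genes, 6 rose (28.6%) and 2 fell (9.52%), with a median log2 change of 0.06. Among genes of at least 10 CPM, a background for this list and for the kinesin list below, 28.4% rose and 23.1% fell. The median of that background was 0.05. NIPBL, which loads cohesin, rose from 32.9 and 36.5 to 67.1 and 68.5 CPM (0.96, SE 0.08), and SMC4 of condensin rose from 159.8 and 171 to 299.8 and 300.5 CPM (0.86, SE 0.08). SMC3 of cohesin fell from 140.0 and 153 to 101 and 100.2 CPM. NCAPH of condensin had 68.2 and 69.4 against 51.1 and 56.2 CPM and was not called without A549 replicate 1 or 2 (adjusted p = 0.0535 and 0.0640 by edgeR). Without A549 replicate 1, 2 genes of this list rose, and without A549 replicate 2, 3 rose and 1 fell. Without TD replicate 2, 5 fell. Of 28 other mitotic kinesins and spindle proteins, 8 rose (28.6%) and 3 fell (10.7%), and without A549 replicate 1 the number that rose was 5. The depolymerising kinesin gene KIF2A rose from 28.8 and 32.6 to 60.3 and 64.5 CPM (1.02, SE 0.09), and CKAP2L, a protein of spindle microtubules, rose from 30.8 and 33.4 to 61.4 and 60.6 CPM (0.93, SE 0.08). TACC2, of a family of centrosomal coiled-coil proteins, fell from 141 and 142 to 19.2 and 19.1 CPM (-2.88, SE 0.07, adjusted p = 4.12e-05 by edgeR). TROAP, a protein of the spindle, fell from 51.6 and 51.8 to 37.2 and 36.1 CPM.

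Genes of DNA replication and S phase had more falls than rises. Of 37 tested, 13 fell (35.1%) and 7 rose (18.9%), with a median log2 change of -0.09, while the mitosis and spindle genes had 5 falls and 19 rises and a median of 0.27. The difference between the lists was not tested. E2F2, a transcription factor of S phase genes, fell from 13.7 and 14.6 to 4.07 and 4.21 CPM (-1.77, SE 0.12, adjusted p = 4.59e-04 by edgeR). ORC1, which marks replication origins, fell from 50.9 and 54.5 to 31.7 and 32.4 CPM (-0.72, SE 0.08). PCNA, the sliding clamp of DNA polymerases, named after its values were seen, fell from 374 and 396 to 235 and 261 CPM (-0.63, SE 0.09, adjusted p = 0.00557 by edgeR). GINS3, of the replicative helicase, rose from 19.7 and 23.1 to 38.9 and 42.9 CPM (0.94, SE 0.11). CCNE2, cyclin E2, had 5.64 and 5.33 against 8.37 and 8.75 CPM but its call ended when A549 replicate 1 (adjusted p = 0.0732) or A549 replicate 2 (0.0826) was left out. Without either A549 library, 8 genes of this list fell and 1 rose.

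Of 9 tested CDK inhibitors and pocket proteins, 2 rose (22.2%) and 2 fell (22.2%), shares near those of all genes (21.6% and 21.4%). CDKN1B, the inhibitor p27, fell from 82.5 and 79.6 to 40.9 and 41.9 CPM (-0.97, SE 0.07, adjusted p = 6.33e-04 by edgeR), and CDKN2C, the inhibitor p18, fell from 30.4 and 32.7 to 17.3 and 20.8 CPM (-0.73, SE 0.12). CDKN1A, the inhibitor p21 and named after its values were seen, had 111 and 108 CPM in A549 and 109.8 and 129 CPM in TD, with no call (adjusted p = 0.373 by edgeR). CDKN2A, which is known to be deleted in A549, had 0 counts in all 4 libraries. RBL2, the pocket protein p130 of the complex that silences cell cycle genes in resting cells, had 34.3 and 34.0 against 52.3 and 49.8 CPM (log2 change 0.58, SE 0.07, adjusted p = 0.00353 by edgeR). Leaving out A549 replicate 1 ended its call (adjusted p = 0.0502).

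**Figure D5:**
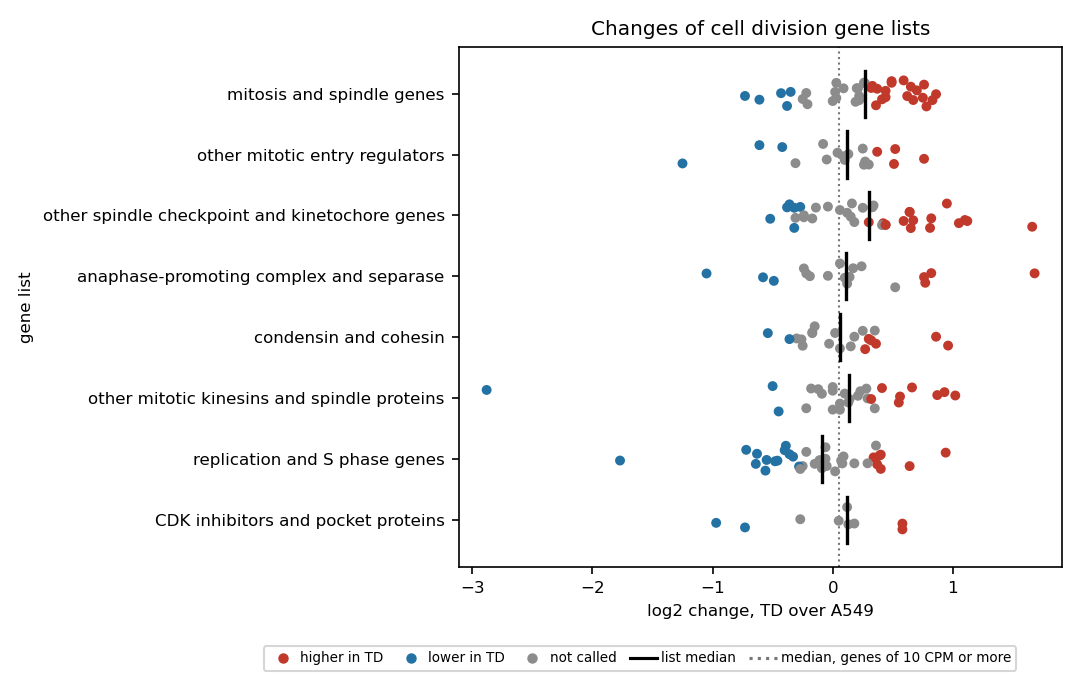
Log2 change of each tested gene, TD over A549 (horizontal axis), for the mitosis and spindle genes and 7 other lists of cell division genes, with calls in red (higher) and blue (lower). A black bar marks each list's median, 0.27 for the mitosis and spindle genes and -0.09 for replication and S phase, and the dotted line marks 0.05, the median of genes of at least 10 CPM.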

How the data were processed

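Strand-specific TruSeq libraries of polyadenylated RNA, 2 of A549 and 2 of TD, were read from both ends on an Illumina NextSeq, per the labels' protocols. The authors deposited unnormalized gene counts, with a file per library. Per the submitters' processing notes, the tools were FastQC 0.11.8, STAR 2.7.1a and HTSeq 0.11.2, and the build was GRCh37 (hg19). Neither the strand setting nor the annotation release of the counting is given in the sources used here, so counts of overlapping genes are uncertain. Reads in no gene made up 6.12% to 7.79% of the counted reads, those in more than 1 gene 2.34% to 2.56% and those with more than 1 alignment 8.08% to 9.22%, and they were kept out of library sizes. Library totals ran from 26729278 to 44133836 gene counts, and limits for 0 counts (3 counts) cover counting error only.

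Symbols were matched by Ensembl identifier for 51996 of 57820 rows, and for 237 of 239 symbols in the lists. Gene types, exon lengths and GC content came from GENCODE 29, on another build, of which no coordinates are used. Promoter sequences came from the RefSeq table of GRCh38.p14.

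The test was the quasi-likelihood test of edgeR 4.0.16 (R 4.3.3) on all 4 libraries without covariates, with TMM scaling (factors 0.922 to 1.04), filterByExpr (minimum count 10) and p-values adjusted by Benjamini-Hochberg over 17785 genes. The SE is the fitted log2 change divided by the root of its F statistic. Alternatives were other scalings, no filter or 5 CPM in 2 libraries, DESeq2 1.42.0, limma-voom 3.58.1, protein-coding genes only, libraries thinned to the smallest total, a test against a 1.5-fold change, the replicate number as a block, and each library left out.

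All 39 genes are named, and of each other list the 2 called genes with the largest change in each direction; others are marked where they appear. A result that this rule names is not reported here. The members and lists were chosen with earlier results of these data known.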

Additional observations from a re-analysis of the deposited data

How the results depend on the processing

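No value of a mitosis and spindle gene that was called changed direction under any of the 15 alternatives, and the median log2 change of the set stayed between 0.19 (library totals) and 0.31 (without TD replicate 1). With 1 library left out, the number of the 39 genes called higher ran from 11 (without either A549 library) to 24 (without TD replicate 1), against 19, and the number called lower from 2 (without A549 replicate 2) to 6 (without TD replicate 2), against 5. Over all tested genes the same settings gave 2114 (without A549 replicate 1) to 5329 (without TD replicate 1) higher and 2236 to 6140 lower, from the same libraries, against 3833 and 3809. The library that remains alone in its group is given the spread of the other group, and the coefficient of variation was 7.08% without either TD library and about 34% without either A549 library. The test against a 1.5-fold change gave 2 higher and 0 lower of the 39, and 1741 and 2109 of all genes. With a filter of 5 CPM in 2 libraries, 8 of the 39 were lower; fewer genes are tested there and the coefficient of variation was 14.7%. DESeq2's test and the fit on protein-coding genes alone each called 6 more of the 39, and neither lost a call. In both settings these were CCNA2, INCENP, KIF2C and ANLN, called higher, and KIF11 and BUB1, called lower.

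Replicate numbers are shared by the groups but not said to pair cultures, and the deviations of libraries with the same number had a correlation of -0.093 over genes. With the replicate block, 15 of the 39 genes were higher and 4 lower, and 2964 and 2847 of all genes. The 5 genes that lost their calls there were CDCA8, NUSAP1, DLGAP5, NUF2 and UBE2C (adjusted p = 0.0690, 0.0525, 0.0714, 0.0539 and 0.0696 by edgeR). No scaling moved the median of all genes by more than 0.08 on the log2 scale. For the other lists, 45 of 210 counts moved by over 1.5 times, of which 30 fell. At these depths the counts behind each of the 39 genes are large, and 2 libraries a group limit the precision.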
